A study of Mus musculus with 2 samples.

Results

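The adherens junction genes examined here are 3 cadherins (Cdh1, Cdh2 and Cdh11) and 5 catenins (Ctnna1, Ctnna2, Ctnnb1, Ctnnd1 and Jup), measured in the cortical fiber cells and in the epithelial cells of the mouse eye lens. Members were chosen by name, as every probe whose single gene symbol in the platform annotation is one of these 8. This gave 9 of the 19819 probes on the array and 8 of the 13709 genes with a symbol and a value on both arrays. Each member has 1 probe except Ctnna2, which has 2.

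Lenses of 13-day-old mice (5 mice) were taken apart with forceps into the capsule with its attached epithelium and into cortical fibers, and poly(A) RNA of each was hybridized to 1 CodeLink 1-colour array. The labels name no genotype, strain or treatment for either sample, and they do not say whether the lenses were pooled. The text attached to both samples mentions fetal liver, whereas titles, source names and series design name the lens.

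Classical cadherins are calcium-dependent adhesion receptors that bind the same or a like cadherin on the neighbouring cell. Their cytoplasmic tail binds β-catenin or plakoglobin, which holds α-catenin and through it the actin cytoskeleton, while p120-catenin binds nearer the membrane and slows removal of the cadherin from the surface. Lens epithelial cells are known to carry both E-cadherin and N-cadherin, and N-cadherin is the main cadherin along the sides of elongated fiber cells. The comparison between cortex and epithelium therefore contrasts E-cadherin with N-cadherin, and both with their catenin partners.

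Values are normalized intensities, scaled so that the array median is close to 1 (0.998 on both arrays). Values under a floor of 0.5 of the median (0.499) were raised to it, so a gene that cleared it on only 1 array is given as a bound, written "at least". There was 1 array for each sample, which allows no test between them, and no p-value is printed. A gene was called higher in a sample when it was brighter there by 3-fold or more and reached the median of that array. The only error available comes from genes with several probes, with a pooled SD of 1.10 and a median SD of 0.59 for the log2 difference over 558 genes. This error is technical and holds no variation between animals.

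The labelled tissues carried their own markers. Of 12 measured fiber genes, 10 were called higher in cortex and 0 in epithelium, and of 9 measured epithelial genes 6 were called higher in epithelium and 0 in cortex. Of all genes, 9.41% were called higher in cortex and 8.17% in epithelium. The epithelium array still held fiber transcripts, with a summed intensity of the fiber list of 2272 against 17583 in cortex. The epithelial list in turn summed to 350 in cortex against 724 in epithelium, most of the cortex sum coming from Sfrp1. Sfrp1 was not called and was brighter in cortex at both its probes (329 against 224, and 130 against 98.0). Wls was brighter in epithelium (9.88 against 4.37) but under the 3-fold limit. Gja1 (connexin 43), a marker of lens epithelium, stood at only 0.569 in epithelium. Of 8 measured liver and erythroid genes none was called in either direction, and their summed intensity was 5.90 in epithelium and 5.81 in cortex.

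The sharpest contrast among the 8 genes was in Cdh1, which encodes E-cadherin. Cdh1 was bright in epithelium but lay under the floor in cortex, while Cdh2, which encodes N-cadherin, was present on both arrays and somewhat brighter in epithelium. β-Catenin and αE-catenin were close to equal, and p120-catenin read brighter in epithelium by about as much as N-cadherin. The differences of p120-catenin and N-cadherin were little more than the pooled SD between probes. The neural α-catenin Ctnna2 was called higher in cortex at its brighter probe. Cdh11 and Jup were under the floor on both arrays. Only 1 member was called in each direction, Cdh1 in epithelium and Ctnna2 in cortex. By the same rule 8.17% of all genes were called higher in epithelium and 9.41% higher in cortex, so that 1 of 8 in each direction is near the background and is no result about the group.

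**Figure D1:**
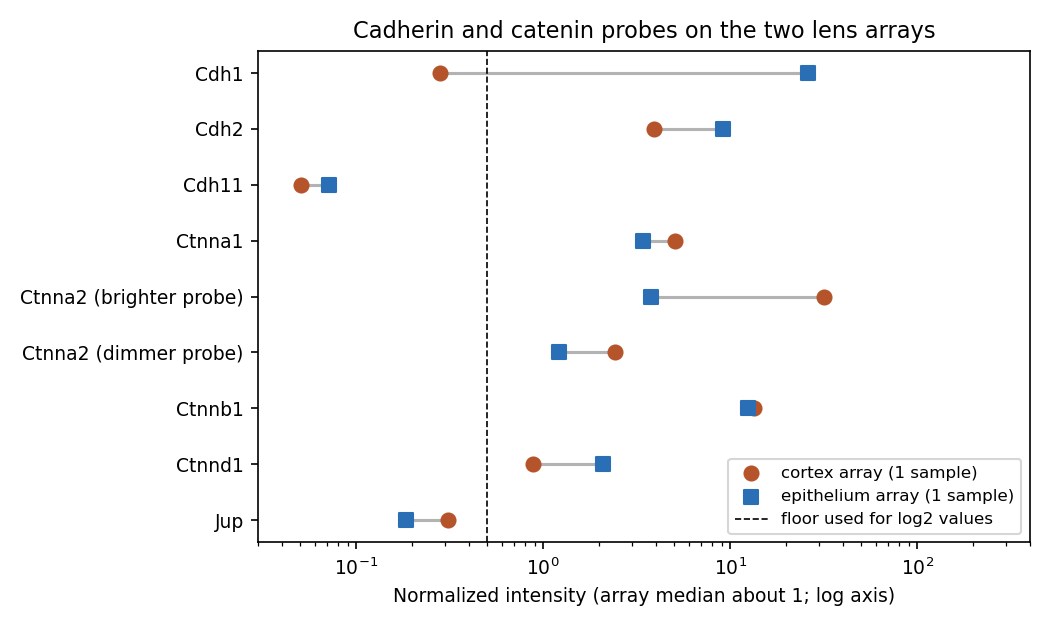
Normalized intensity of the 9 probes of the 8 cadherin and catenin genes on the cortex array (circles) and the epithelium array (squares), on a log axis, with 1 sample each and no error bars; the dashed line is the floor. Cdh1 spans from 0.281 in cortex to 26.0 in epithelium, both Ctnna2 probes lie further right in cortex, and both values of Cdh11 and of Jup lie under the floor.

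Cdh1 (Entrez gene 12550) stood at 26.0 in epithelium and 0.281 in cortex. The cortex value was under the floor, so Cdh1 was at least 52.2-fold higher in epithelium, a log2 difference of -5.70 or beyond. With a floor at the array median its bound was 26.1-fold. By the size of this difference or bound, Cdh1 was number 9 of the 1120 genes called higher in epithelium. It was called in each scaling tried. In dissected tissue, fewer E-cadherin-bearing cells and less of the transcript per cell cannot be told apart.

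Other tissue markers also differed between the arrays in the direction of Cdh1. Of 9 ciliary body genes, 3 were higher in epithelium (Ptgds, Msx1 and Gpx3) and 1 in cortex (Opn3), and their summed intensity was 135 in epithelium and 13.1 in cortex, most of it from Ptgds (123 against 7.54). The ciliary body genes Zic1, Bmp4, Wfdc1 and Cdh6 were under the floor on both arrays. Of 9 measured pigment cell genes, 2 were higher in epithelium (Oca2 and Tyrp1) and 1 in cortex (Dct), with sums of 16.5 and 5.58. Pmel (1.59 in epithelium against 0.760) and Kit (1.45 against 0.148) were also brighter in epithelium but under the 3-fold limit. Slc45a2 and Mitf were just above the floor in cortex only, and Tyr and Sox10 were under the floor on both arrays. By the same rule 8.17% of all genes were higher in epithelium and 9.41% in cortex. The part of these markers in the Cdh1 difference was not tested.

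Cdh2 (Entrez gene 12558) stood at 9.20 in epithelium and 3.90 in cortex. The 2.36-fold difference (log2 -1.24) was under the 3-fold limit and little more than the pooled SD between probes. Of the genes measured on both arrays, 33.2% differed by at least as much in either direction. Cdh2 kept its direction in each scaling and passed 3-fold only after centring on ribosomal protein genes (4.50-fold). That centring lowers the log2 difference of every gene above the floor on at least 1 array by 0.93, since the ribosomal protein genes were brighter in cortex by that median amount.

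E-cadherin and N-cadherin transcripts differed between the samples by unequal amounts. The log2 difference of Cdh1 exceeded that of Cdh2 by at least 4.47, which is 2.88 times the pooled SD for a difference between 2 such values. That SD comes from probes above the floor on both arrays and does not cover the Cdh1 value under the floor in cortex. This contrast is not moved by any constant scaling of an array. It was 4.62 after quantile normalization, 4.45 after loess on brightness and 3.47 with the floor at the array median. In cortex the Cdh2 probe lay above the array median and the Cdh1 probe under the floor. Cdh2 was not higher in cortex under any setting tried, so opposite directions of the 2 cadherin genes were not seen on these arrays. The settings rescale the same Cdh2 probe, and its difference was little more than the pooled SD, so the direction of Cdh2 is not settled.

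Cdh11 (Entrez gene 12552) encodes OB-cadherin, a type II cadherin known from mesenchyme and bone-forming cells. It stood at 0.0510 in cortex and 0.0715 in epithelium, both far under the floor, so no difference can be given. Most fibroblast and mesenchyme markers were also low. Of 10 measured, 6 were under the floor on both arrays, Col1a1, Col3a1, Dcn and Lum among them, and 3 were higher in epithelium (Col1a2, Col5a1 and Fbln1), the brightest of these at 2.34. The exception was Pdgfrb, a growth factor receptor gene also carried by vascular mural cells, at 12.9 in epithelium and 4.46 in cortex, under the 3-fold limit. Of all genes, 8.17% were called higher in epithelium.

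Ctnnb1 (Entrez gene 12387), encoding the β-catenin that binds the tails of E- and N-cadherin alike, stood at 13.5 in cortex and 12.4 in epithelium. The 1.09-fold difference (log2 0.12) was far under the SD between probes, and 91.7% of genes measured on both arrays differed by at least as much. Its sign turned with the scaling, to -0.12 with quantile normalization and to -0.81 when centred on ribosomal protein genes, so no direction can be given. The log2 difference of Cdh1 was at least 5.82 below that of Ctnnb1, or 3.75 times the pooled SD for such a contrast, which does not cover a value under the floor. For Cdh2 the gap to Ctnnb1 was 1.36, or 0.87 times that SD, which is within the error.

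Jup (Entrez gene 16480) encodes plakoglobin, the close relative of β-catenin that serves both adherens junctions and desmosomes. It stood at 0.311 in cortex and 0.184 in epithelium, under the floor on both arrays. Of the 2 catenins that can occupy the same place on the cadherin tail, the β-catenin probe was therefore above the floor on both arrays and the plakoglobin probe on neither. Levels of different probes are not comparable, and no ratio of the 2 catenins is given.

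The α-catenins link the complex to actin, and how far they came apart depended on which Ctnna2 probe was read. Ctnna1 (Entrez gene 12385), encoding the widely expressed αE-catenin, stood at 5.04 in cortex and 3.42 in epithelium. The 1.48-fold difference (log2 0.56) was within the SD between probes and became -0.37 after centring on ribosomal protein genes. Ctnna2 (Entrez gene 12386) encodes αN-catenin, known mainly from the nervous system. Its brighter probe read 31.6 in cortex against 3.79 in epithelium, an 8.34-fold difference (log2 3.06) that 5.30% of genes measured on both arrays matched or exceeded. It was number 365 of the 1290 genes called higher in cortex.

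The dimmer Ctnna2 probe read 2.43 in cortex against 1.22 in epithelium, a 2.0-fold difference (log2 0.997), so the call rests on the brighter probe. Both probes were brighter in cortex, and the SD between their log2 differences was 1.46. Neither the brighter probe's call nor its direction depended on the scaling, with 4.36-fold as its lowest value, after centring on ribosomal protein genes. The log2 difference of the brighter Ctnna2 probe exceeded that of Ctnna1 by 2.497, or 1.61 times the pooled SD for such a contrast. For the dimmer probe this excess over Ctnna1 was 0.43. Markers of the retina, a neural tissue near the lens, gave no call. Of 7 measured, 4 lay above the floor on both arrays, with a summed intensity of 7.45 in cortex and 4.97 in epithelium. Crx, a photoreceptor transcription factor, was the most different (1.51 against 0.513). Rlbp1 (2.20 against 1.08) and Rcvrn (2.35 against 1.87) were also brighter in cortex, and Nrl (0.618 against 0.769) was brighter in epithelium. The photoreceptor genes Gnat1 and Sag, and Neurod1, were under the floor on both arrays. The part of neural tissue in the Ctnna2 difference was not tested.

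Ctnnd1 (Entrez gene 12388), encoding p120-catenin, stood at 2.08 in epithelium and 0.884 in cortex. The cortex value lay between the floor and the array median. The difference was 2.36-fold (log2 -1.24), as it was for Cdh2, and 33.3% of genes measured on both arrays differed by at least as much. It rests on 1 probe and was little more than the pooled SD between probes, so the direction of Ctnnd1 is not settled either. Like Cdh2, Ctnnd1 passed 3-fold only after centring on ribosomal protein genes (4.50-fold). Where the floor is the array median it differed by at least 2.08-fold. A relation between Cdh2 and Ctnnd1 cannot be tested with 1 array for each sample.

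**Figure D2:**
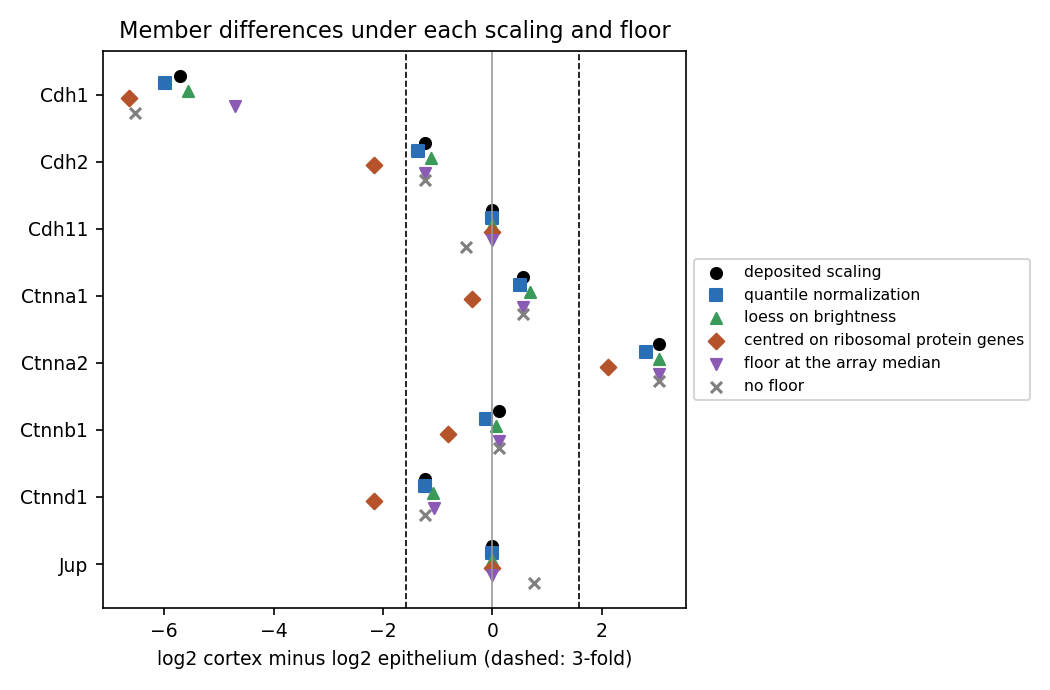
The log2 difference (cortex minus epithelium) of each of the 8 genes, 1 symbol per scaling or floor, with dashed lines at 3-fold; there is 1 array for each sample and no error bar. Cdh1 lies left of the limit and Ctnna2 (brighter probe) right of it under each of these settings, Cdh2 and Ctnnd1 pass the left limit only after centring on ribosomal protein genes, and Ctnna1 and Ctnnb1 change sign with the scaling.

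Set among all genes, the members spread to both sides, with the bound of Cdh1 on the epithelium side, Ctnna2 on the cortex side and Ctnnb1 near equality. Over the 8351 genes measured on both arrays the median log2 difference was 0.03, and over the 5 members measured on both it was 0.12. The 3 genes whose pair of log2 values lay nearest to that of Cdh1 were Tmem35a (25.4 in epithelium, distance 0.04), Scel (25.2, distance 0.05) and Tinagl1 (20.1, distance 0.37), all under the floor in cortex. Scel encodes sciellin, a protein of the cornified envelope of stratified epithelia. The nearest to Cdh2 were Aifm1, Msl3 and Gtf2e1, and the nearest to Ctnnb1 were Alkbh7, Chmp1a and Ift57, all within 0.06. These distances are over 2 arrays and describe those arrays alone.

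**Figure D3:**
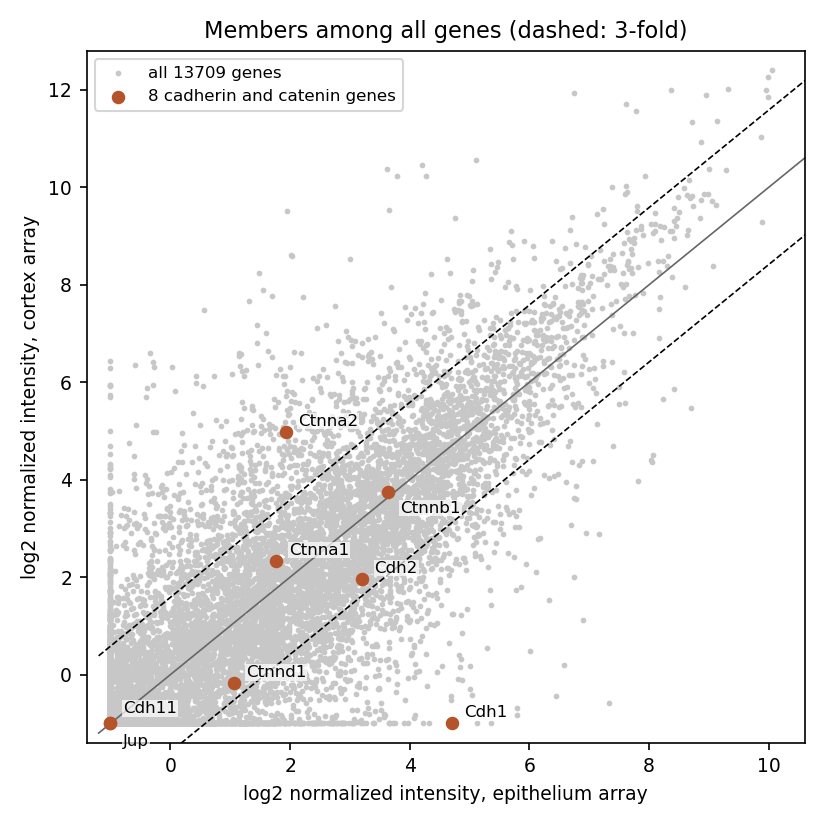
Floored log2 normalized intensity of 13709 genes (grey) on the epithelium array (horizontal) and the cortex array (vertical), 1 sample each, with the 8 members in colour, equality as a solid line and 3-fold as dashed lines. Cdh1 lies on the cortex floor far to the right, Ctnna2 lies above the upper dashed line, and Cdh11 and Jup share the corner where both arrays are at the floor.

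The other cadherins looked up, all genes with a Cdh symbol, were little seen on either array. Of 14 other cadherins measured, 8 were under the floor on both, among them the vascular Cdh5 and the type II cadherins Cdh6, Cdh9 and Cdh10. Cdh3, which encodes P-cadherin, a classical cadherin of basal epithelial cells, stood at 4.85 in epithelium and 1.44 in cortex. It was 3.36-fold higher in epithelium, though its second probe was under the floor on both arrays and the call was lost when probes were averaged. Cdh4 (R-cadherin) read 2.36 in cortex against 1.47 in epithelium, a 1.60-fold difference. Cdh8 was at least 2.43-fold brighter in cortex (1.21), and Cdh15 (0.739 in cortex), Cdh20 (0.503 in cortex) and Cdh23 (0.533 in epithelium) lay just above the floor on 1 array. Of the cadherins looked up here, Cdh1 and Cdh3 were thus called, both in epithelium. The bound for Cdh1 exceeded the difference of Cdh3 by 3.96 on the log2 scale.

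The relatives of the catenins gave no call. All 8 measured were above the floor on at least 1 array, and the 2 brightest probes were Arvcf (99.995 in cortex, 55.2 in epithelium, 1.81-fold) and Pkp4 (78.9 and 42.2, 1.87-fold). Arvcf is a p120-catenin relative that binds the same region of cadherins, and Pkp4 is a plakophilin-like member of that family. Pkp1, a desmosomal plakophilin, stood at 5.03 in cortex and 2.36 in epithelium, and Pkp3 was at least 2.20-fold brighter in cortex (1.10). Ctnnal1, an α-catenin-like protein, stood at 1.58 in cortex and 3.06 in epithelium, and Ctnnd2 (δ-catenin) at 0.837 and 1.06. Ctnnbip1, an inhibitor of β-catenin's binding to its nuclear partners, stood at 0.605 in cortex and 0.424 in epithelium. Ctnnbl1, which despite its name is a splicing-associated protein, stood at 18.7 and 28.7. The log2 differences of Arvcf (0.86) and Pkp4 (0.90) are smaller than the 0.93 by which centring on ribosomal protein genes lowered them, so their direction turns under that scaling.

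Desmosomes are the other cadherin-based junction. Of their 8 measured genes none was called, and 4 were under the floor on both arrays, namely the desmosomal cadherin genes Dsg2, Dsg1a and Dsc3 and the desmoplakin gene Dsp. The plakin gene Ppl (13.9 in cortex, 20.8 in epithelium) and Perp, a tetraspan protein of desmosomes (6.65 and 3.13), were above the floor on both. Evpl, another plakin gene, was at least 2.88-fold brighter in epithelium (1.44), under the limit. Jup, the catenin that desmosomes share, was under the floor as well.

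Actin linkers and nectins had the most calls in epithelium of the 7 lists. Of 17 measured, 5 were called higher there and 0 in cortex, against a background of 8.17% of all genes. The list's median log2 difference was 0.00, as it was over all genes, where it is set by genes at the floor; over its 13 genes measured on both arrays it was -0.49. Nectin3, an immunoglobulin-type adhesion receptor of adherens junctions, stood at 42.5 in epithelium and 5.68 in cortex (7.47-fold). Its other 2 probes were 3.17-fold brighter in epithelium and 1.19-fold brighter in cortex, so the probes disagree. Lima1 (EPLIN, which ties α-catenin to actin) stood at 7.17 in epithelium and 1.05 in cortex, and Zyx (zyxin, a protein of tensed actin attachments) at 7.79 and 1.25.

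Lmo7, a linker between nectin- and cadherin-based complexes (5.69 in epithelium, 1.42 in cortex), and the actin crosslinker gene Actn4 (3.89 and 1.07) completed the 5. These 5 calls held in each scaling and where the floor is the array median, but that of Nectin3 was lost when the probes of a gene were averaged. The 12 other genes of the list were not called, and those measured on both arrays lay on either side. Iqgap1, a scaffold that binds β-catenin and actin regulators, stood at 2.48 in epithelium and 1.05 in cortex (2.35-fold), and the LIM protein gene Ajuba at 19.9 and 14.2. In the other direction, Tjp1 (ZO-1) stood at 72.2 in cortex and 24.7 in epithelium, 2.92-fold and under the limit, and Ssx2ip, which binds the nectin partner afadin, at 144 and 120. Vcl (vinculin), which binds α-catenin under tension, was under the floor on both arrays.

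Of 17 measured genes for the removal or modification of cadherins, 3 were called higher in cortex and 2 in epithelium, against 9.41% and 8.17% of all genes. These counts are near the background, and the genes are described singly. Numb, an endocytic adaptor that binds cadherin complexes, stood at 8.26 in cortex and 1.20 in epithelium (6.89-fold). Adam10, the protease that sheds the outer part of E- and N-cadherin, stood at 17.4 in cortex and 5.40 in epithelium (3.22-fold). The Adam10 call was lost with quantile normalization and with centring on ribosomal protein genes, and its second probe was under the floor on both arrays. The tyrosine phosphatase gene Ptpn14 was 3.84-fold higher in cortex (3.23 against 0.841), a call lost after that centring.

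Ptprk, a receptor tyrosine phosphatase of cell contacts that binds β-catenin, was higher in epithelium. It read 12.0 in epithelium against 0.562 in cortex, a 21.3-fold difference, or at least 12.0-fold where the floor is the array median. Psen2, a catalytic subunit of γ-secretase, stood at 2.02 in epithelium and 0.618 in cortex (3.27-fold) and was not called where the floor is the array median. The related phosphatase gene Ptprf stood at 43.4 in epithelium and 25.0 in cortex, under the limit.

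Of 12 measured regulators of the E- and N-cadherin genes, 1 was higher in each sample. Twist2, a basic helix-loop-helix factor, stood at 10.1 in cortex and 2.87 in epithelium (3.52-fold), a call lost after centring on ribosomal protein genes. Klf4, a zinc finger factor known to activate the E-cadherin gene in epithelia, was at least 3.28-fold higher in epithelium (1.64 against 0.321) and was not called where the floor is the array median. Twist2 is a relative of Twist1, which is known to repress the E-cadherin gene. Of the other genes on the list known as E-cadherin repressors, none was called. Snai1 stood at 2.89 in cortex and 1.46 in epithelium, Zeb1 at 2.98 and 3.01, Zeb2 at 0.519 and 0.671 and Twist1 at 0.824 and 0.734, and Snai2 and Snai3 were under the floor on both arrays. Tcf4 and Ovol1, also on the list, were brighter in epithelium. Tcf4 stood at 13.4 in epithelium and 5.26 in cortex (2.55-fold), and Ovol1 at 2.68 and 0.995 (2.70-fold). Both passed 3-fold only after centring on ribosomal protein genes.

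β-Catenin that is not bound to cadherin is destroyed by a complex of Apc, Axin and kinases, or enters the nucleus as a coactivator. Of 15 measured genes of these steps, 1 was higher in cortex and 2 in epithelium, against 9.41% and 8.17% of all genes. These counts too are near the background, and the genes are described singly. Bcl9l, a coactivator that binds β-catenin, read 9.49 in epithelium against 0.575 in cortex, a 16.5-fold difference, or at least 9.51-fold where the floor is the array median. Its relative Bcl9 did not follow, with 16.1 in epithelium and 20.9 in cortex. The casein kinase genes differed in opposite directions. Csnk1e stood at 13.8 in cortex and 1.85 in epithelium (7.44-fold, called in each scaling), and Csnk1d at 2.56 in epithelium against 0.311, under the floor, in cortex (at least 5.14-fold, not called where the floor is the array median).

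The scaffold genes of the destruction complex were close to equal, with Apc at 1.56 in cortex and 1.82 in epithelium and Axin1 at 1.74 and 1.41. The kinase gene Gsk3b stood at 1.41 in cortex and 3.06 in epithelium (2.17-fold), under the 3-fold limit and past it after centring on ribosomal protein genes. Axin2, widely used as a readout of β-catenin signalling, was under the floor on both arrays. Lef1, a DNA-binding partner of β-catenin, stood at 4.12 in cortex and 2.85 in epithelium.

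Across the 7 lists, 90 genes other than the members were measured, each counted once. Of these 11 (12.2%) were higher in epithelium and 5 (5.56%) in cortex, against 8.17% and 9.41% of all genes. The median log2 difference of the 53 measured on both arrays was 0.03, as it was over all genes. The 11 calls in epithelium held in each scaling, and of the 5 in cortex only those of Numb and Csnk1e did. Centring on ribosomal protein genes lowers the difference of every gene above the floor, so it can remove calls in cortex but none in epithelium. These counts therefore do not compare how firm the calls are. With the floor at the array median, 3 of the 11 calls in epithelium were lost and 0 of the 5 in cortex. Vascular cells surround the young lens and carry Cdh5. They had no call among 7 measured markers, with Cdh5, Pecam1, Kdr and Emcn under the floor on both arrays. The other vascular markers were all brighter in epithelium but within the 3-fold limit. Tek differed by 2.58-fold (2.40 against 0.928), Tie1 by at least 1.83-fold (0.913 in epithelium) and Esam by 1.10-fold (0.657 against 0.598). The part of vascular cells in the epithelium calls was not tested. Of 6 macrophage markers none was called and 5 were under the floor on both.

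**Figure D4:**
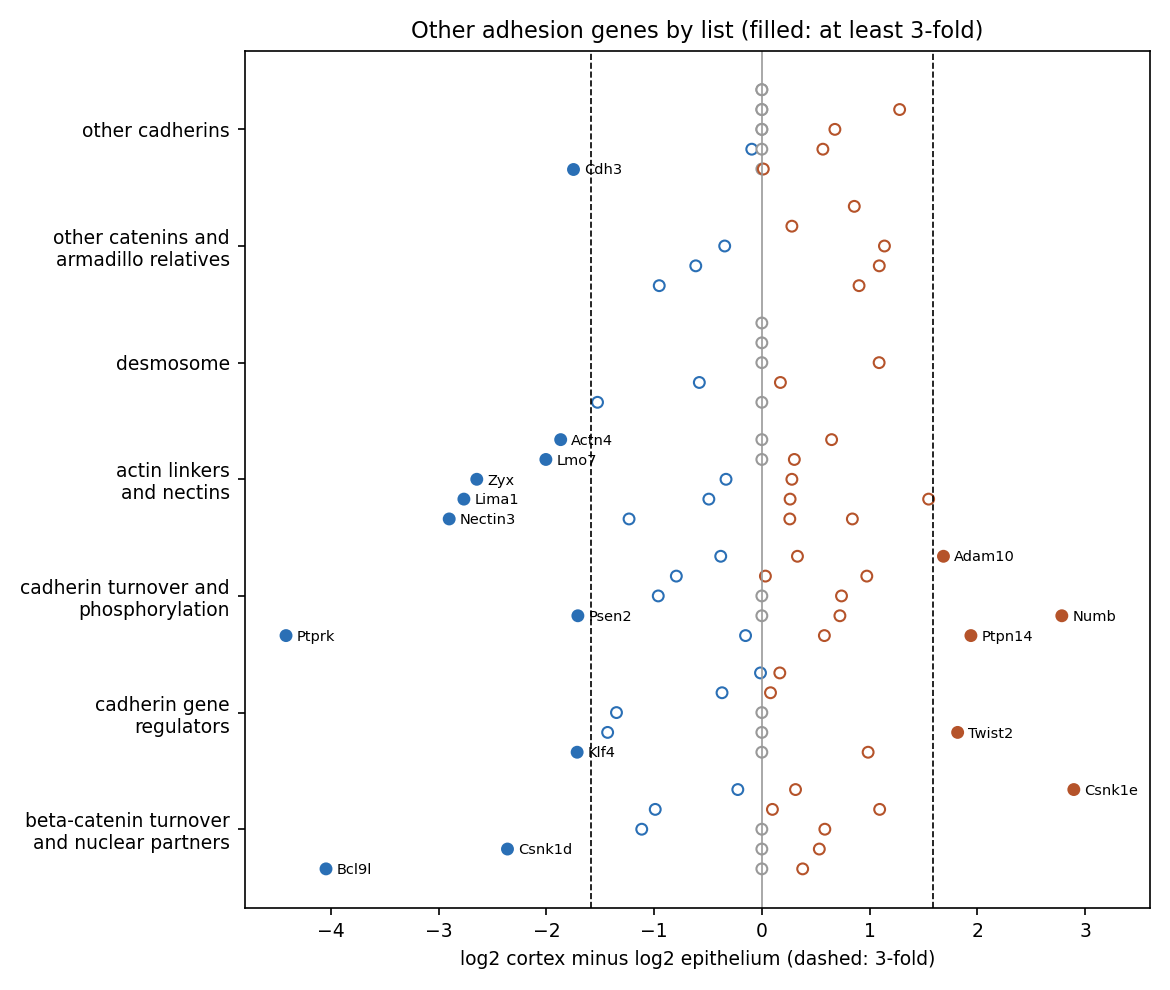
The log2 difference (cortex minus epithelium) of every measured gene in the 7 adhesion lists, with 1 array for each sample; filled points pass the 3-fold rule and are named, open points do not, grey points are under the floor on both arrays and dashed lines mark 3-fold. The actin linker and nectin list has 5 filled points on the epithelium side and none on the cortex side. Of the points on the cortex side only Numb and Csnk1e pass in each scaling, but centring on ribosomal protein genes can remove calls on that side only.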

How the data were processed

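The deposited table holds 1 normalized intensity per probe for 2 arrays. Per the labels, CodeLink software analysed the images. The authors' background and scaling steps are not given in the labels or headers, and no detection flags were used. The linear intensities include values below 0 (161 in cortex, 74 in epithelium). Probes missing on either array (87 and 97) were left out.

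Of the probes, 15120 had 1 symbol, 38 several and 4661 none. By Entrez identifier 15064 matched RefSeq (GRCm38.p6), and no symbol changed. Values were floored, log2 was taken, and the probe with the highest mean log2 value stood for a gene. Genes at the floor on both arrays got a difference of 0. The rule was tested on simulated data, with changes planted in bright genes only and noise smaller than the spread between probes here. That test does not cover changes in dim genes or in genes at the floor.

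The members and lists were chosen with earlier results of these data known. Named were all members, the other cadherins and catenins above the floor, up to 5 genes per further list that passed 3-fold, the 3 genes nearest to Cdh1, Cdh2 and Ctnnb1, and called markers. Other genes were named after their values were seen. Alternatives were 3 scalings (quantile, loess with span 0.3, centring on 61 ribosomal protein genes), other floors, probe rules, fold limits and a filter on dim genes. Python 3.11.15, numpy 2.4.6, pandas 2.3.3, statsmodels 0.14.6 and matplotlib 3.10.9 were used.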

Additional observations from a re-analysis of the deposited data

How the results depend on the processing

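The number of members called higher in epithelium was 1 with the deposited scaling, 3 after centring on ribosomal protein genes or with a 2-fold limit (Cdh1, Cdh2 and Ctnnd1 in both cases), and 0 among genes at or above the median on both arrays, a filter that leaves out Cdh1. The number in cortex was 0 with the dimmer Ctnna2 probe, an alternative chosen after seeing the data, with which the Ctnna2 difference was 0.997 and its excess over Ctnna1 0.43. The other adhesion genes called in epithelium were 11, and became 20 after centring on ribosomal protein genes and 6 with a 5-fold limit or among genes at or above the median on both arrays. Those called in cortex were 5, and became 2 after that centring or with a 5-fold limit and 11 with a 2-fold limit. Averaging the probes of a gene left 9 in epithelium, without Nectin3 and Cdh3, and 4 in cortex, without Adam10. Of all calls, cortex took 53.5% with the deposited scaling, 46.6% after quantile normalization, 54.1% after loess and 17.1% with ribosomal centring, under which the median over genes measured on both arrays went from 0.03 to -0.90. Over all alternatives the Cdh1 difference ran from -6.64 to -4.70 and the Cdh2 difference from -2.17 to -1.12. No paired analysis was possible because there was 1 array for each sample. The number of arrays limits every value, and members under the floor have no measured difference.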

Other observations

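Of 19719 probes with a value on both arrays, the cortex array held 12550 distinct values and the epithelium array 15614, so that exact ties between probes were more common in cortex.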
